A study of Homo sapiens with 12 samples.

Results

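Antigen presentation in TK6 cells was followed here through 10 genes that are not HLA genes: B2M, CD74, CIITA, NLRC5, TAP1, TAP2, TAPBP, RFX5, ERAP1 and CTSS. They were chosen by symbol from the table of raw counts, and each was summed with its copy rows, the entries such as TAP1_1 that repeat a gene on a sequence outside the assembled chromosomes. All 10 were found. They took 29 of the 50006 rows, and are 10 of the 44055 genes left when every copy row is summed into its gene. TK6 (IVGT), from the JCRB Cell Bank, is 1 human lymphoblastoid line grown in suspension and used in mutation assays. It was cultured with 3-methylcholanthrene, a polycyclic aromatic hydrocarbon carcinogen, for 24 h at 0 µg/mL (control), 0.0004 µg/mL (low), 0.04 µg/mL (medium) or 4 µg/mL (high), with 3 RNA-seq libraries of polyadenylated RNA per concentration and 12 in all. The labels name no solvent for the control and do not tell whether replicates are separate cultures. A p-value below therefore speaks of spread among libraries that may be technical. At none of the 3 concentrations did any of the 10 genes pass the test against control.

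HLA molecules carry peptides to the cell surface for T cells to inspect. Class I molecules pair with the light chain B2M and are loaded in the endoplasmic reticulum, where the TAP1 and TAP2 transporter brings in peptides, ERAP1 trims them and TAPBP (tapasin) edits the choice of peptide; NLRC5 activates the genes of this route. Class II molecules, which B cells use to present antigen they have taken up, are escorted by the invariant chain CD74, freed of it by proteases such as CTSS (cathepsin S) and transcribed under the activator CIITA on promoters held by the RFX complex, of which RFX5 is a subunit.

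The stretches of 150 bases before the start of 5 of these genes are printed first, to show the 4 genes where interferon-responsive letters were found and, beside them, CD74. RefSeq promoter windows (GRCh38.p14) were matched for 7 of the 10 genes, with 11 windows in all because RFX5 has 3 and TAP1 and ERAP1 have 2 each; CIITA, NLRC5 and CTSS have none here. Bases are written 5′ to 3′ on the strand of the gene, and capitals mark matches to any of 4 motifs searched on both strands: the interferon-stimulated response element (ISRE) core, which is GAAA, any 2 bases and GAAA again, the gamma-activated sequence core TTCNNNGAA, the CCAAT box CCAAT and the RFX box core GCAAC. The windows are B2M at chr15:44711367-44711516, plus strand, TAP1 at chr6:32853705-32853854, minus strand, TAP2 at chr6:32838740-32838889, minus strand, TAPBP at chr6:33314079-33314228, minus strand, and CD74 at chr5:150412911-150413060, minus strand.
B2M: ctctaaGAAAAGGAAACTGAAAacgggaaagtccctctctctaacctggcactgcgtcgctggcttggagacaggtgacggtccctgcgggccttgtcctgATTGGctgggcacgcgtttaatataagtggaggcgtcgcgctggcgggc
TAP1: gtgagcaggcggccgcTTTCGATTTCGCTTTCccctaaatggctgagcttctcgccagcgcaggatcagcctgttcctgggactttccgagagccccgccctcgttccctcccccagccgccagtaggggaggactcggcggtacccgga
TAP2: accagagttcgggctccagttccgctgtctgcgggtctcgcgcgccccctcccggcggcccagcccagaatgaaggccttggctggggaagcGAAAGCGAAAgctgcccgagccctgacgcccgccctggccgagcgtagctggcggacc
TAPBP: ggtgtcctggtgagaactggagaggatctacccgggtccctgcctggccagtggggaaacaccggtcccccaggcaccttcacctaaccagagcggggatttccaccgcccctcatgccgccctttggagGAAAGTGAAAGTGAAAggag
CD74: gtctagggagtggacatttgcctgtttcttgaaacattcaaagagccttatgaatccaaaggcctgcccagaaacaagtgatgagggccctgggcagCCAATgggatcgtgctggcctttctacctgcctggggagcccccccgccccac
The ISRE core was found in 1 window each of B2M, TAP1, TAP2 and TAPBP, 4 of the 11 windows (36.4%), with overlapping matches in B2M, TAP1 and TAPBP, against 1.74% of 35116 promoter windows of this length. It was not found in the other window of TAP1 or in either window of ERAP1, which is also a class I gene. CCAAT was found in 1 window each of B2M, CD74 and RFX5 (27.3% of the 11, against 23.5% of all windows), and GCAAC in 1 window each of RFX5 and ERAP1 (18.2%, against 18.5%). TTCNNNGAA was found in 0 of the 11, against 3.66%. A match is a run of letters and not a shown binding site.

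Libraries held 9163368 to 19841387 counts, with a median of 10097837, and a floor of 3 counts stood for 0.151 to 0.327 CPM (counts scaled to a common library total). B cell markers were present: MS4A1 had a median of 236.9 CPM and PAX5 567.3 CPM over the 12 libraries, while BLK had 23 counts in all. The 4 erythroid markers had 0 counts, and CD3G, CD5, GNLY and KLRD1 of the 8 T and NK cell markers had 0 counts. The 9 myeloid and dendritic cell markers had sums of 11.8 to 14.3 CPM (control), 12.02 to 17.6 CPM (low), 14.7 to 18.01 CPM (medium) and 13.9 to 18.3 CPM (high). Of these, S100A8 and FCGR3A had 0 counts, while S100A9 had a median of 10.7 CPM and CSF1R 2.21 CPM. The 4 plasma cell markers, a later B cell state, had sums of 886.2 to 1035 CPM in control and 507.6 to 1006 CPM in high. Their sums were 588.3 to 1048 CPM in low and 781.8 to 936.1 CPM in medium, and 0 were called. The T and NK cell markers summed to 3.93 to 8.43 CPM, with NKG7 at a median of 5.79 CPM. The 6 stromal and epithelial markers summed to 2.63 to 7.34 CPM. Of these, COL1A2, EPCAM and KRT19 had 0 counts and COL1A1 a median of 3.89 CPM.

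The 10 genes together took 0.104% to 0.212% of a library's counts. Per length, CD74 was far above the rest, with a median of 611 CPM per kilobase of exon over the 12 libraries (range 292.5 to 921.9). B2M (55.0, range 32.8 to 69.5) and RFX5 (39.4, range 35.0 to 45.7) came next and overlapped in their ranges. CTSS (11.7, range 10.4 to 13.8) and ERAP1 (10.5, range 7.17 to 12.9) also overlapped, as did NLRC5 (4.65, range 4.04 to 5.35) and CIITA (4.49, range 3.45 to 5.15). TAPBP (3.33, range 2.15 to 9.78), TAP1 (2.88, range 1.002 to 14.4) and TAP2 (0.442, range 0.173 to 4.72) stood lowest by median and overlapped one another, all in CPM per kilobase. The exon lengths are those of the chromosome rows, and the 20597 bases of CIITA and 14961 bases of ERAP1 pool the exons of all their transcripts. B2M, TAP1, TAP2 and TAPBP have copy rows, so their levels are uncertain, as is any order that rests on them.

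**Figure D1:**
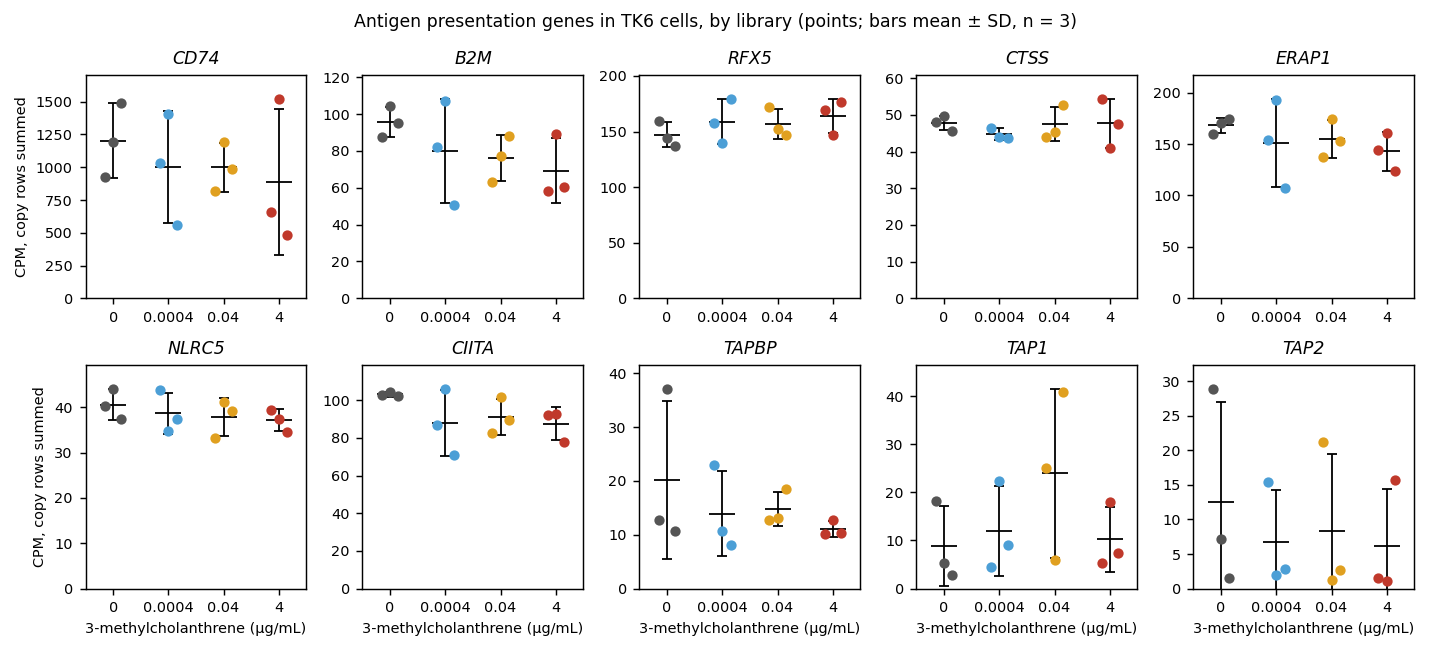
CPM (y axis, from 0) of each of the 10 genes, copy rows summed, at 0, 0.0004, 0.04 and 4 µg/mL 3-methylcholanthrene (x axis); points are libraries and bars the mean ± SD of 3. CD74 spreads from 483.6 to 1524 CPM within the high group alone, while RFX5, CTSS and NLRC5 stay within 1.33-fold over all libraries.

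CIITA (chromosome 16, 10866206 to 10943021, plus strand, GRCh38.p14), the class II transactivator, had 103.0, 104.5 and 102.0 CPM in control replicates 1 to 3, 86.8, 106.1 and 71.03 in low, 82.8, 101.6 and 89.3 in medium and 92.2, 92.8 and 77.8 in high. The controls lay close together, and all 3 high libraries lay below all controls. Among the 11867 genes tested, 8.24% had high libraries wholly below control in this way on CPM, and 3.61% when CPM was scaled by the TMM composition factors of the test, where CIITA also did not overlap. The medium libraries of CIITA lay below control on CPM (8.35% of genes) but not on scaled CPM (5.21% of genes). The fitted log2 difference of CIITA from control was -0.18 ± 0.13 in high, -0.14 ± 0.13 in medium and -0.19 ± 0.13 in low (SE; edgeR quasi-likelihood test, Benjamini-Hochberg adjusted p = 0.813, 0.999 and 0.913). It was -0.10 in high without high replicate 3, -0.074 and -0.21 in medium without medium replicates 1 and 2, and -0.34 and -0.077 in low without low replicates 2 and 3, none called. The 95% interval in high ran from -0.46 to 0.11, which leaves a larger fall outside it. Exons of DEXI, on the opposite strand, cover 7.62% of those of CIITA, and DEXI had 0 counts in all libraries. How reads in shared exons were assigned is not given, so the 0 does not show that DEXI was silent.

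RFX5 (chromosome 1, 151340640 to 151347252, minus strand), the DNA-binding subunit of the RFX complex, had 159.3, 144.3 and 137.4 CPM in control, 157.4, 139.7 and 179.6 in low, 172.3, 152.2 and 146.5 in medium and 169.7, 146.7 and 176.2 in high. High overlapped control, with 2 of 3 high libraries above every control. RFX5 had the smallest p of the 10 genes in high, with a log2 difference of 0.22 ± 0.12 (SE; 95% interval -0.039 to 0.47; edgeR adjusted p = 0.813, unadjusted p = 0.0886).

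CD74 (chromosome 5, 150401639 to 150412910, minus strand), the class II invariant chain, had 925.5, 1194 and 1491 CPM in control, 1032, 1408 and 556.8 in low, 818.5, 1190 and 988.8 in medium and 659.1, 1524 and 483.6 in high. The highest and the lowest of the 12 libraries were both high libraries, replicates 2 and 3, and they differed 3.15-fold. The log2 difference from control was -0.38 ± 0.41 in high, -0.24 ± 0.41 in medium and -0.24 ± 0.41 in low (SE; edgeR adjusted p = 0.813, 0.999 and 0.922). In high it was -1.04 without high replicate 2, -0.083 without high replicate 3, -0.17 without control replicate 3 and -0.19 without high replicate 1, and low turned to 0.036 without low replicate 3, none of them called. CD74 has no copy row and shares 0% of its exon bases with other genes of the table.

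CTSS (chromosome 1, 150730188 to 150765778, minus strand), the protease that frees class II molecules of the invariant chain, had 48.0, 49.7 and 45.7 CPM in control, 46.6, 44.1 and 43.7 in low, 44.1, 45.5 and 52.8 in medium and 54.5, 41.0 and 47.7 in high. High libraries lay on both sides of the controls. The log2 difference was 0.052 ± 0.11 in high, 0.030 ± 0.11 in medium and -0.054 ± 0.11 in low (SE; edgeR adjusted p = 0.885, 0.999 and 0.930). In high the 95% interval, -0.19 to 0.30, spans folds of 0.874 to 1.23.

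On the class I side, NLRC5 (chromosome 16, 56989557 to 57083520, plus strand), the class I transactivator, had 40.2, 44.1 and 37.4 CPM in control, 43.7, 34.8 and 37.5 in low, 33.3, 41.2 and 39.2 in medium and 39.5, 37.4 and 34.6 in high. All groups overlapped. Its log2 difference in high was -0.068 ± 0.12 (SE; 95% interval -0.33 to 0.19; edgeR adjusted p = 0.859), with -0.056 in medium and -0.027 in low (adjusted p = 0.999 and 0.969).

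B2M (chromosome 15, 44711517 to 44718145, plus strand), the class I light chain, had 87.6, 104.2 and 95.4 CPM in control, 82.2, 107.3 and 50.7 in low, 63.2, 77.3 and 88.2 in medium and 58.0, 89.4 and 60.5 in high. Only high replicate 2 of the high libraries reached into the range of control. The log2 difference was -0.40 ± 0.25 in high, -0.29 ± 0.25 in medium and -0.22 ± 0.25 in low (SE; edgeR adjusted p = 0.813, 0.999 and 0.913). Without high replicate 2 the value in high was -0.65, and without low replicate 3 the value in low was 0.0053, neither called. The single copy row B2M_1 held 32.0% of the gene's counts in high replicate 3 and 16.3% to 22.4% in the other 11 libraries.

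ERAP1 (chromosome 5, 96760813 to 96935854, minus strand), the peptide trimmer of the endoplasmic reticulum, had 159.9, 170.3 and 174.2 CPM in control, 153.6, 193.1 and 107.3 in low, 137.4, 174.1 and 153.3 in medium and 144.3, 160.8 and 123.5 in high. High replicate 2 lay within the range of control and the other 2 high libraries below it. The log2 difference was -0.18 ± 0.18 in high, -0.081 ± 0.18 in medium and -0.12 ± 0.18 in low (SE; edgeR adjusted p = 0.813, 0.999 and 0.915). In low it was 0.064 without low replicate 3 and -0.32 without low replicate 2, not called. Other genes cover 23.7% of its exon bases. LOC124901030, on the same strand, covers 11.6% and had 4 counts over all libraries. CAST, on the opposite strand, covers 2.62% and had 13323 counts. Whether the counting used strand is not given in the sources used here.

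TAP1, TAP2 and TAPBP lie in the HLA region of chromosome 6, where the table also lists alternate haplotypes, and most of their counts stood on those. The chromosome row held 1.08% of the 1851 counts of TAP1 over all libraries and 0.148% of the 2022 counts of TAPBP. For TAP2 it held 33.8% of 1023 counts, more than any other single row, and led or tied for the lead in 4 libraries. The tie was in high replicate 2, where it, TAP2_2, TAP2_4 and TAP2_5 each held 4 of 21 counts. For TAP1 and TAP2 the row that held most counts changed between libraries of 1 cell line. TAP1 was led by TAP1_3 in 8 libraries, by TAP1_1 in 2 and by TAP1_4 in 2. TAP1_4 held 278 of 358 counts in high replicate 2 and 265 of 422 in medium replicate 3, but 9 of 84 in high replicate 3. TAP2 was led by 6 different rows. TAP2_4 held 245 of its 274 counts in control replicate 1, TAP2_1 held 138 of 153 in low replicate 1, and the chromosome row held 160 of 194 in medium replicate 1. TAPBP was led by TAPBP_3 in 11 libraries and by TAPBP_4 in high replicate 3. B2M_1 never led.

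**Figure D2:**
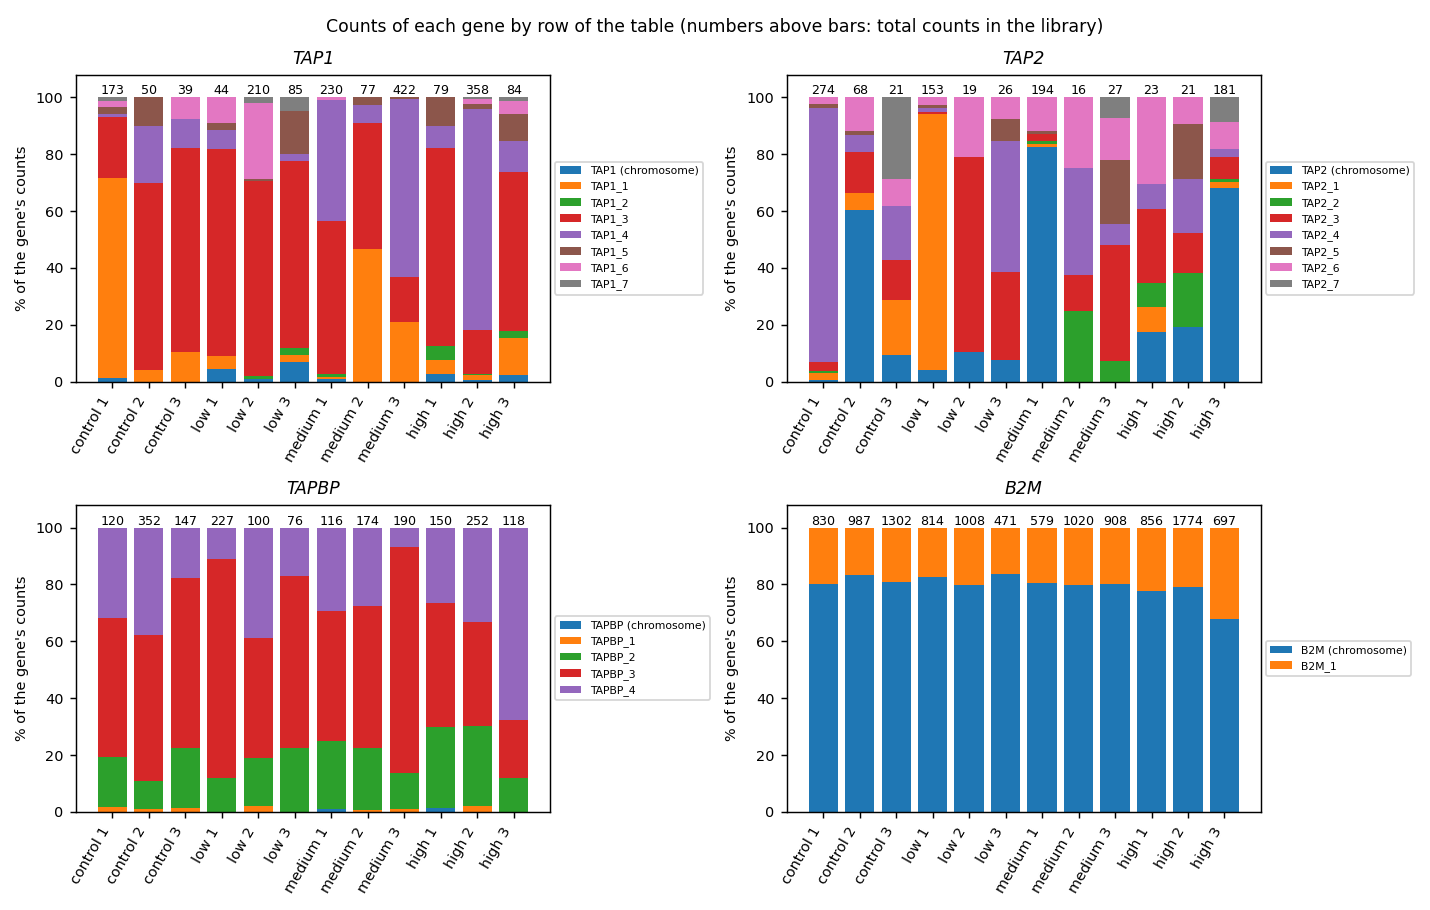
Share of each gene's counts (y axis, %) on the chromosome row and on each copy row, stacked, in each of the 12 libraries (x axis); numbers above bars are the gene's total counts. For TAP2 the largest block belongs to 6 different rows, with totals from 16 to 274 counts, while B2M keeps 68.0% to 83.7% on the chromosome row.

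TAP1 (32845209 to 32853704, minus strand), a transporter subunit, had 18.3, 5.28 and 2.86 CPM in control, 4.45, 22.3 and 9.15 in low, 25.1, 5.84 and 41.0 in medium and 5.35, 18.0 and 7.29 in high. The libraries of each group were far apart, and all groups overlapped. The log2 difference was 0.33 ± 0.83 in high, 1.52 ± 0.84 in medium and 0.51 ± 0.84 in low (SE; edgeR adjusted p = 0.904, 0.999 and 0.922). Without high replicate 2 the value in high was -0.40, and without control replicate 1 it was 1.42.

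TAP2 (32821831 to 32838739, minus strand), the other subunit, had 28.9, 7.18 and 1.54 CPM in control, 15.5, 2.02 and 2.80 in low, 21.2, 1.21 and 2.62 in medium and 1.56, 1.06 and 15.7 in high. In each of low, medium and high, 1 library stood far above the other 2, and all groups overlapped. The log2 difference was -0.98 ± 1.32 in high, with a 95% interval from -3.87 to 1.92 (SE; edgeR adjusted p = 0.825), and -0.54 in medium and -0.82 in low (adjusted p = 0.999 and 0.921). Without control replicate 1 all of these turned, to 0.55 in high, 0.98 in medium and 0.69 in low, none called. Counting the chromosome row alone gave 1.33 in high and 1.96 in medium but did not turn the value in low, none called.

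TAPBP (33299694 to 33314078, minus strand), the tapasin gene, had 12.7, 37.2 and 10.8 CPM in control, 22.9, 10.6 and 8.18 in low, 12.7, 13.2 and 18.5 in medium and 10.2, 12.7 and 10.2 in high. High overlapped control, whose replicate 2 stood far above the rest. In that library TAPBP_3 held 181 and TAPBP_4 133 of 352 counts, so more than 1 row was high. The log2 difference was -0.80 ± 0.46 in high, -0.40 ± 0.46 in medium and -0.49 ± 0.46 in low (SE; edgeR adjusted p = 0.813, 0.999 and 0.913). Without control replicate 2 it was -0.028 in high, 0.37 in medium and 0.28 in low. RGL2, on the same strand, covers 50.5% of the exon bases of the chromosome row of TAPBP, and its own chromosome row had 0 counts in all libraries. Overlap and counts on copy rows were not examined, and most counts of TAPBP stood on copy rows. How reads in shared exons were assigned is not given in the sources used here, so the 0 does not show that RGL2 was silent.

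Over the 10 genes, 0 of 10 were called in high, medium or low against control, in the trend over the ranks 0 to 3 of concentration or in the test of any difference among the 4 groups, as were 0 of 11867 genes tested (0%). At an unadjusted p under 0.05 the edgeR tests held 365 of all genes in high, 227 in medium and 324 in low, and 0 of the 10. DESeq2 called 2 genes of the table in each contrast and limma voom 0, none of them among the 10. In high 7 of the 10 lay below control and 3 above, with a median log2 difference of -0.18 against 0.0049 over all genes. The split was 7 below and 3 above in medium (median -0.11, against 0.0021 over all genes) and 8 below and 2 above in low (median -0.16, against 0.0082). The 3 comparisons share their control libraries. The slope per rank of concentration was -0.13 ± 0.071 for B2M, -0.11 ± 0.12 for CD74 and 0.063 ± 0.035 for RFX5 (log2, SE; edgeR adjusted p = 0.858 each).

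**Figure D3:**
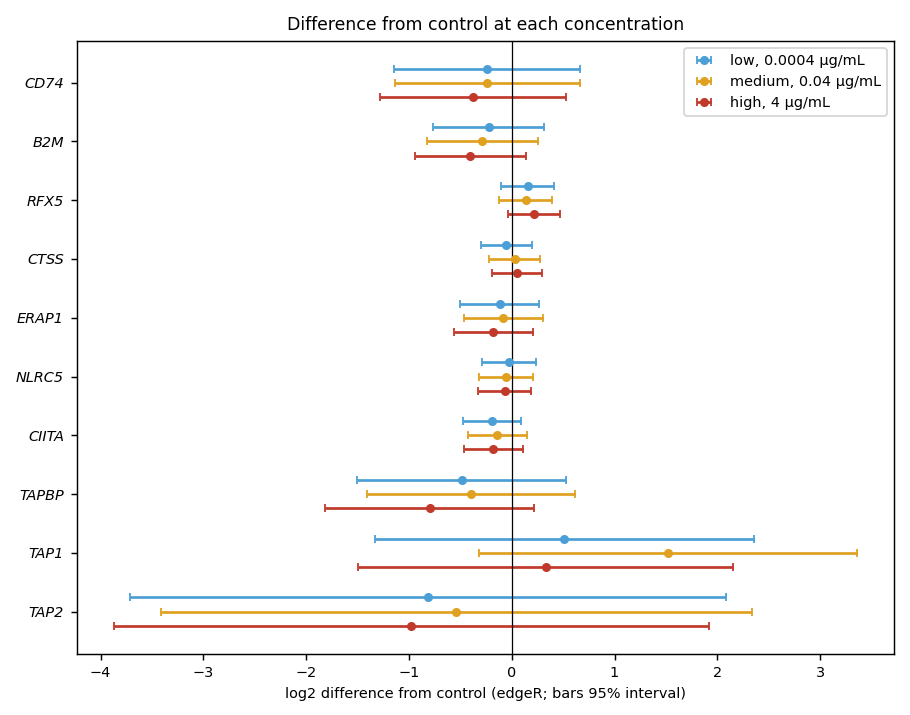
Log2 difference from control (x axis) of each of the 10 genes in the low, medium and high groups, with bars for the 95% interval of the edgeR fit. Every interval spans 0. The widest belong to TAP2 (-3.87 to 1.92 in high) and TAP1, and in high those of CTSS (-0.19 to 0.30), RFX5 (-0.039 to 0.47) and NLRC5 (-0.33 to 0.19) are narrow.

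Some of the 10 genes moved strongly between libraries of 1 group instead, along with the RNA of the mitochondrial 16S ribosomal gene. That RNA took 1.43% to 7.99% of a library's counts: 3.84%, 2.18% and 1.43% in control replicates 1 to 3, 3.39%, 1.46% and 7.99% in low, 4.80%, 2.73% and 3.13% in medium and 5.52%, 1.45% and 7.96% in high. In a fit of all genes on the log2 of this share with the 4 groups kept as terms, a relation chosen after the values were seen, 49.4% of 11866 genes were called (25.1% falling and 24.3% rising with the share). Of the 10 genes 6 were called, close to that background, so the count itself says nothing particular about them. CD74 fell by 0.59 on the log2 scale per doubling of the 16S share (95% interval -0.66 to -0.52; edgeR adjusted p = 9.66e-09), a slope more negative than that of all but 1.5% of genes. B2M fell by 0.31 (-0.42 to -0.21; adjusted p = 8.98e-05), ERAP1 fell by 0.22 (-0.29 to -0.15; adjusted p = 8.10e-05) and CIITA fell by 0.14 (-0.21 to -0.068; adjusted p = 0.00298), a call lost with the replicate number as a block (adjusted p = 0.0592) and without the 2 libraries highest in 16S RNA (adjusted p = 0.113). RFX5 rose by 0.13 (0.081 to 0.18; adjusted p = 3.94e-04). The slopes of NLRC5 (-0.0056, interval -0.11 to 0.097) and CTSS (0.050, interval -0.043 to 0.14) did not pass (adjusted p = 0.933 and 0.368), nor did those of TAP1 and TAPBP (adjusted p = 0.489 and 0.591). The slope of TAP2, 1.61 (0.60 to 2.61; adjusted p = 0.0109), rests on counts that sit on different rows in different libraries and missed the threshold without high replicate 3 (1.27, adjusted p = 0.0794).

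**Figure D4:**
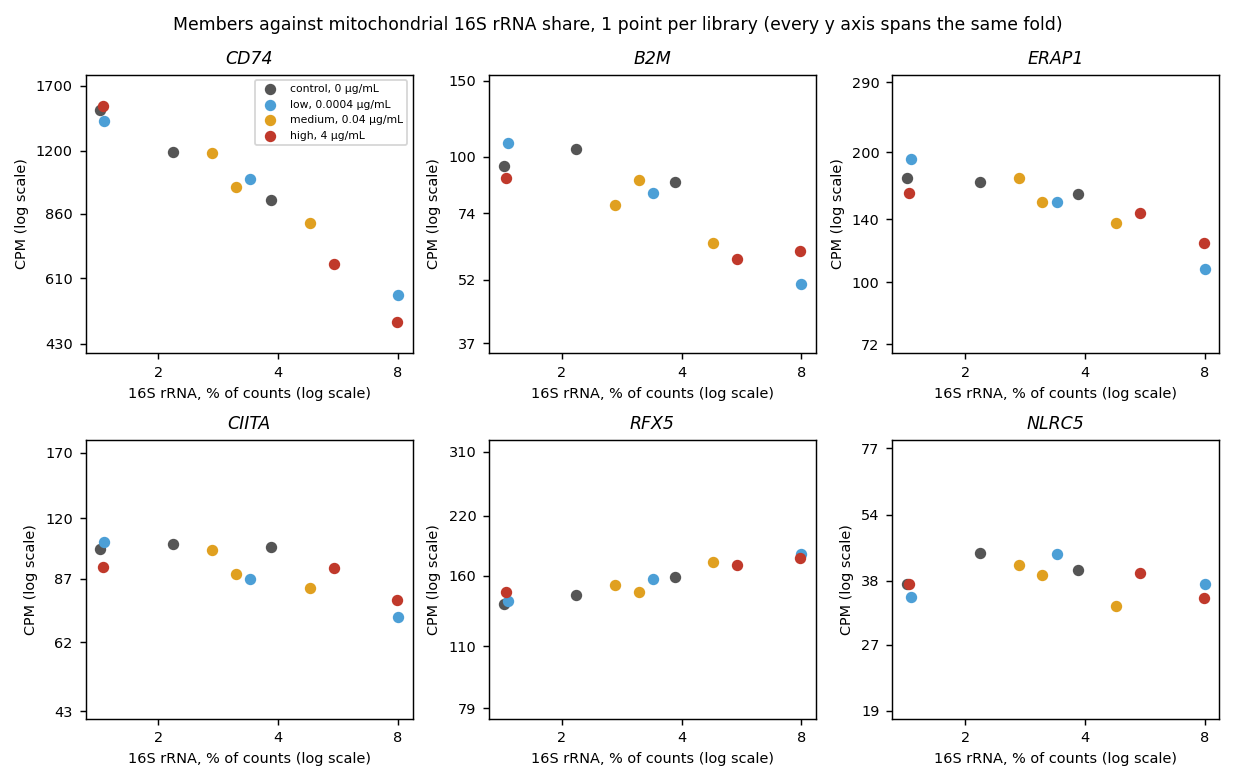
CPM (y axis, log scale, the same fold span in each panel) of 6 of the genes against the share of mitochondrial 16S rRNA in the library (x axis, %, log scale); each point is 1 library, coloured by group. CD74 runs from 1491 and 1524 CPM in libraries near 1.4% to 483.6 and 556.8 CPM in those near 8%, RFX5 runs the other way, and NLRC5 shows no slope.

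7SK RNA, which has no poly(A) tail, was high in the libraries highest in 16S RNA and low in the lowest, though the order was not the same throughout. It stood at 63.9 and 90.0 CPM in high replicate 3 and low replicate 3, the libraries with most 16S RNA, and at 4.89, 5.11 and 7.18 CPM in high replicate 2, low replicate 2 and control replicate 3, those with least. CD74 was lowest in the first pair and highest in the other 3. What sets these differences between libraries was not tested. With the 16S share as a covariate, added after the values were seen, the log2 difference of CD74 in high was -0.050 ± 0.078, where it was -0.38 ± 0.41 without it, and in medium and low it was 0.13 ± 0.077 and 0.045 ± 0.077 (SE). B2M then stood at -0.18 ± 0.11 in high, ERAP1 at -0.0069 ± 0.080, CIITA at -0.071 ± 0.079 and RFX5 at 0.11 ± 0.058, and 0 of the 10 were called in any contrast with control (edgeR adjusted p = 0.998 each in high). TAP2 moved to -2.41 ± 0.98 in high, from counts on changing rows (unadjusted p = 0.0270, edgeR adjusted p = 0.998).

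Genes that work beside the 10 were likewise not called. Of 11 further genes of class I peptide supply and loading, all tested, 5 lay above and 6 below control in high (median log2 -0.15), 4 and 7 in medium (-0.033) and 5 and 6 in low (-0.048), with 0 called. PSME1, a subunit of the proteasome activator PA28, stood at -4.14 ± 1.24 and PSMB8, an immunoproteasome subunit, at 0.34 ± 0.15 in high (log2, SE; edgeR adjusted p = 0.813 each). Both have copy rows, and PSME1 ran from 1.18 to 98.6 CPM over the 12 libraries. Its partner PSME2 ran from 0.969 to 149 CPM and stood at -0.89 ± 1.08 in low (log2, SE, edgeR adjusted p = 0.913). PSME2 has a copy row too, so its level is uncertain, and the split of its counts between rows was not examined. PSME2 was called in low without low replicate 2 (-5.62 ± 0.40, edgeR adjusted p = 3.67e-04). That was the only call among these genes in the alternatives run against control or over rank. The joint test also called PSME2 in 1 alternative. This gene was chosen after its values were seen. LNPEP, another aminopeptidase that trims class I peptides, was the gene whose profile over the 12 libraries was most like that of CIITA. The root-mean-square difference between their profiles was 0.187 in SD units, against a median of 1.36 over 11866 genes. It was picked as the smallest of these differences, so it is low by selection. Whether both genes are regulated together was not tested.

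Of 11 further class II processing genes 9 were tested, with 3 above and 6 below control in high (median log2 -0.052), 5 and 4 in medium (0.0068) and 1 and 8 in low (-0.098), and 0 called. MARCHF1, a ubiquitin ligase that removes class II molecules from the surface, stood at -1.19 ± 0.48 and the protease LGMN at 1.87 ± 0.80 in high (log2, SE; edgeR adjusted p = 0.813 each), on 242 and 87 counts over all libraries. IFI30, the lysosomal thiol reductase, had a median of 108.6 CPM and CTSH, another cathepsin, 215.2 CPM, while CTSL had 0 counts. Of 17 regulators of both routes, all tested, 9 lay above and 8 below control in high (median 0.011), 5 and 12 in medium (-0.054) and 7 and 10 in low (-0.048), with 0 called. JAK2, a kinase of interferon signalling, stood at -0.52 ± 0.23 and IRF1, an interferon-induced transcription factor, at 0.42 ± 0.30 in high (adjusted p = 0.813 each). Without high replicate 3 JAK2 was at -0.29 and IRF1 at 0.14, and IRF1 was at 0.68 without high replicate 2 and 0.020 with the 16S share as a covariate. RFXAP and RFXANK, the partners of RFX5, had medians of 31.5 and 56.5 CPM and log2 differences in high of 0.12 and 0.11 (adjusted p = 0.813 each).

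The HLA genes themselves, whose copy rows make their levels uncertain, were not called either: 1 of 4 tested class I genes lay above control in high (median log2 -0.29) and 2 of 9 tested class II genes (median -0.13). HLA-B stood at -0.38 ± 0.19, HLA-C at -0.21 ± 0.14, HLA-DRB1 at 1.80 ± 0.80 and HLA-DMA at -0.35 ± 0.26 in high (log2, SE; edgeR adjusted p = 0.813 each); HLA-DRB1 was at 0.068 without high replicate 1, and leaving out control replicate 3 put HLA-DMA at -0.062 (high replicate 1, at -0.21). In the fit on the 16S share, 25.1% of all genes were called falling and 24.3% rising at an adjusted p below 0.05. By the same call 5 of the 9 class II genes fell and 0 rose, and 2 of the 4 class I genes fell and 1 rose. Of the 11 class I supply genes 4 fell and 2 rose, of the 9 class II processing genes 3 fell and 1 rose, and of the 17 regulators 5 fell and 4 rose. Whether any list differs from the shares over all genes was not tested.

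Among members the spread within groups differed widely. The SD of log2 CPM within groups was 1.95 for TAP2, 1.23 for TAP1 and 0.64 for TAPBP, against a median of 0.25 over 11867 genes, and 0.59 for CD74. It was 0.12 for CTSS, 0.13 for NLRC5, 0.14 for RFX5 and 0.16 for CIITA, below that median. By the same measure of profile likeness, VASP and YWHAH were most like CD74 (0.127 and 0.129), TMEM230 and SAE1 most like B2M (0.216 and 0.231), ZNF770 second to LNPEP for CIITA (0.221) and AKAP10 and PPFIA1 most like NLRC5 (0.509 and 0.520). For CIITA, CD74 and B2M the nearest of the other 9 genes was ERAP1 (0.313, 0.443 and 0.458), and for NLRC5 it was TAPBP (0.794).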

How the data were processed

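RNA of TK6 cells went through an RNeasy Mini kit, poly(A) capture and paired sequencing on a DNBSEQ-G400RS (protocols in the labels). Versions in the submitters' processing notes, which give no roles in the form used here, are HISAT2 2.2.1, featureCounts 2.0.6, fastp 0.23.4 and MultiQC 1.27, with the build GRCh38.p14. The sources used here do not give how multi-aligned reads and strand were handled. Raw counts for 50006 rows were deposited by the authors, with exon lengths and coordinates in the file header layout of featureCounts. They also deposited CPM per library, which equalled count over total within 5e-05 CPM.

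Copy rows (5953) were summed into their gene over the whole table. Genes kept by filterByExpr (11867) were TMM-scaled and tested by edgeR 4.0.16 (R 4.3.3; 12 libraries, 8 residual degrees of freedom) in contrasts with control, a slope on rank and a joint test. Calls used a Benjamini-Hochberg adjusted p below 0.05 over all genes. SEs are those implied by the F statistic. The steps were checked on simulated counts. Alternatives used DESeq2 1.42.0, limma 3.58.1 (voom), other scalings and filters, rows as deposited and each library left out. Libraries of a group differed by more than sampling noise (chi-square per degree of freedom 7.58 to 137), so none is a plain copy of another in its group. The check cannot tell separate cultures from repeat preparations of the same culture. The members and lists were chosen with earlier results of these data known; all 10 members are named, and of each list the 2 genes with the smallest p in high, and others for a level, as partners of a member, for a profile like a member's (LNPEP) or for a call in an alternative (PSME2). Floors cover counting error only.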

Additional observations from a re-analysis of the deposited data

How the results depend on the processing

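Of 902 recomputed differences of the 10 genes from control or over rank, 0 were called; 872 kept their direction and 30 turned. Away from single libraries, the turned values were as follows. Without a composition factor CTSS was -0.0031 in high and -0.010 in medium. With rows as deposited, where 8 of the 10 genes were tested (not TAP1 and TAPBP), TAP2 was 1.33 in high, 1.96 in medium and 0.72 per rank. With the 16S share as a covariate CD74 was 0.13 in medium and 0.045 in low, and ERAP1 0.049 in medium and 0.0048 per rank. Without the 2 libraries highest in 16S RNA (low replicate 3 and high replicate 3) B2M was 0.0067, CD74 0.037 and ERAP1 0.065 in low. The last 2 settings were chosen after seeing the data.

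Leaving out 1 library in turn gave these ranges for results that turned. In high TAP1 ran from -0.40 to 1.42, TAP2 from -3.18 to 0.55 and CTSS from -0.038 to 0.14. In medium NLRC5 ran from -0.11 to 0.028, TAP2 from -2.65 to 0.98, TAPBP from -0.70 to 0.37 and CTSS from -0.070 to 0.080. In low B2M ran from -0.48 to 0.0053, CD74 from -0.56 to 0.036, NLRC5 from -0.12 to 0.048, TAP1 from -0.29 to 1.60, TAP2 from -2.30 to 0.69, TAPBP from -1.05 to 0.28 and ERAP1 from -0.32 to 0.064. Values that moved without turning included NLRC5 (-0.11 to -0.011) and ERAP1 (-0.29 to -0.088) in high, CD74 (-0.41 to -0.035), TAP1 (0.86 to 2.61) and ERAP1 (-0.16 to -0.0030) in medium, and RFX5 (0.038 to 0.25) in low. Per rank TAP2 ran from -0.70 to 0.15 and CTSS from -0.0011 to 0.046.

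Over all genes, where 0 were called, 2 were called in each contrast with no count filter and with DESeq2, 4 in medium with only the groups compared, 1 in each contrast without the 2 libraries highest in 16S RNA, and 0 to 2 with 1 library left out. Over rank 1 was called with no filter, with DESeq2, with the 16S covariate and without those 2 libraries (0 to 1 with 1 left out). In the joint test 11 were called with no filter, 1 with the covariate and 1 without those 2 libraries (0 to 3 with 1 left out). Genes of the pathway lists were called 0 to 1 times in low with 1 library left out. The causes were not tested.

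For slopes on the 16S share, NLRC5 turned to 0.0076 at the stricter filter (5 CPM in 3 libraries), 0.011 with the replicate block and 0.029 without the 2 highest libraries, and TAPBP to 0.022 with the block and 0.041 without those 2. CIITA missed the threshold with the block (-0.12, adjusted p = 0.0592) and without those 2 (-0.093, adjusted p = 0.113), and TAP2 with the block (1.28, adjusted p = 0.0992) and with rows as deposited (2.08, adjusted p = 0.0804). TAP1 passed with no count filter (-0.28, adjusted p = 0.00119). With 1 library left out NLRC5 ran from -0.056 to 0.014, TAP1 from -0.49 to 0.065 and CTSS from -0.012 to 0.070.

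Same-numbered libraries deviated from their group means with correlations from -0.37 to 0.61. Differently numbered libraries were not compared in this way, so these values do not tell whether the numbers pair the libraries. The replicate block called 0 of the 10 genes in each comparison with control. Counts of 16 to 422 per library limit TAP1 and TAP2.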
